A study of Ovis aries with 2 samples.

Results

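The interleukin-1 family and its receptors were examined in the granulosa cell transcriptome of Hu sheep on supplemented or restricted feed. The set is 9 genes chosen by name, with their earlier values in these data known: the ligands IL1A, IL1B, IL18 and IL33, the antagonist IL1RN, the receptors IL1R1, IL1R2 and IL1RAP, and the protease CASP1. Of these, 7 matched by gene name, each with 1 entry, among 19909 genes (15490 gene names and 4419 entries without a name). IL1R2 and CASP1 are not analysed here. The animals were multiparous ewes aged 3 to 4 years, sampled in the luteal phase of the oestrous cycle. The supplemented group (8 ewes) was given 1.5 times the maintenance diet, 1560 g per ewe and day. The restricted group (8 ewes) was given 0.5 times, 520 g per ewe and day. In both groups the cell layer was scraped out of every visible follicle wider than 2.5 mm, so follicles of different sizes and states are mixed, and each group is 1 library. How many ewes gave RNA to a library is not stated. The variation among ewes was therefore not measured, the diets could not be tested, and every difference given here is between these 2 libraries.

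IL1A and IL1B are the alarm cytokines of innate immunity. Both bind IL1R1, which then recruits the accessory protein IL1RAP and signals through the adaptor MYD88 and the IRAK kinases to NF-kappaB. The system holds its own brakes: IL1RN occupies IL1R1 without signalling, and IL1R2 is a decoy receptor. CASP1, activated in the inflammasome, cuts the inactive precursors of IL1B and IL18. In the ovary, leukocytes of the follicle wall and, around ovulation, granulosa cells are known sources of interleukin-1, and in culture the cytokine acts on prostaglandin and steroid production.

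IL1B and IL1A were far higher in the supplemented library, the antagonist IL1RN was less than 2-fold higher, and IL1RAP and IL18 differed little. The summed level of the 7 genes was 217 FPKM in the supplemented library and 44.6 FPKM in the restricted library. FPKM is fragments per kilobase of transcript, here scaled by 1 size factor per library. A gene was called measured at a mean of at least 1 FPKM over both libraries, which held for 5 of the 7 genes (IL1A, IL1B, IL1RN, IL1RAP and IL18). The log2 ratio used below is that of supplemented over restricted FPKM, each with 1 added, and a gene at 1 or more is called higher by size, at -1 or less lower by size. By this rule 2 of the 5 measured genes were higher, IL1A and IL1B, and 0 were lower, where 5.87% of all 11927 measured genes were higher and 2.85% lower. The median log2 ratio was 0.84 over the 5 genes and -0.08 over all measured genes. Because the genes were picked with their values known, these counts describe the set and support nothing further.

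**Figure D1:**
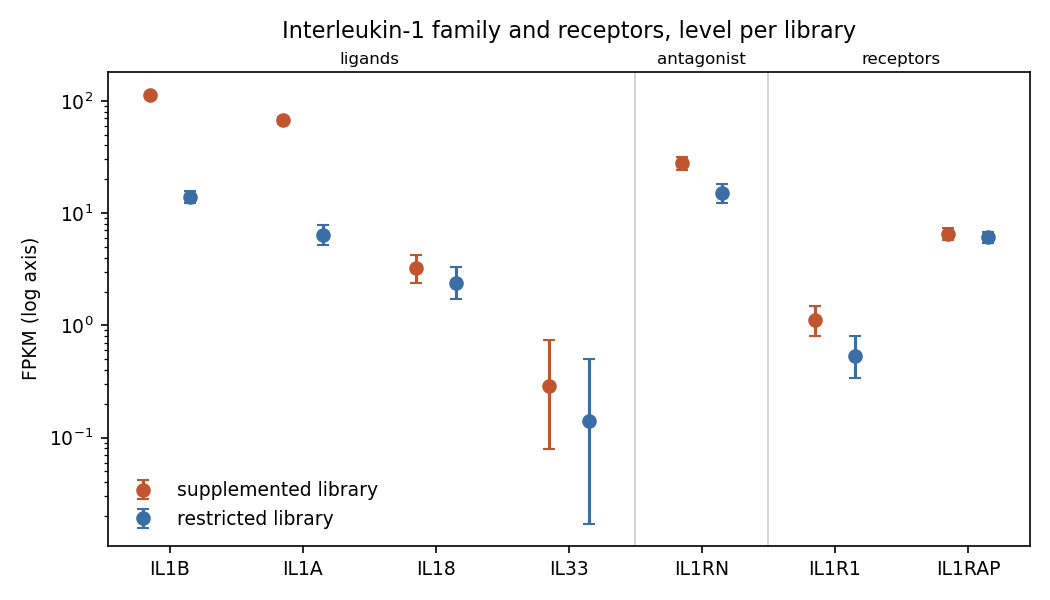
FPKM of the 7 genes on a log axis, in the supplemented (left point of each pair) and the restricted library (right point); bars are exact Poisson 95% intervals of the counts. IL1B and IL1A lie at 112 and 66.8 FPKM in the supplemented library, well above 14.0 and 6.42 FPKM in the restricted one, while the intervals of IL1RAP, IL18 and IL33 overlap between the libraries.

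IL1B, the secreted cytokine that needs cleavage to become active, had 1861 reads and 112 FPKM in the supplemented library, against 241 reads and 14.0 FPKM in the restricted library. The ratio of scaled reads was 7.99 (exact Clopper-Pearson 95% interval 6.99 to 9.18), and the log2 ratio was 2.91. This level exceeded that of 95.8% of the genes detected in the supplemented library, and the restricted level exceeded 67.2% of those detected there. IL1A, the paralogue that is active as a precursor and can act from the cell surface, had 895 reads and 66.8 FPKM in the supplemented library, against 89 reads and 6.42 FPKM in the restricted library. Its ratio was 10.4 (8.37 to 13.1), with a log2 ratio of 3.19. Among the 11927 measured genes only 8 had a larger log2 ratio than IL1A and 19 a larger one than IL1B. The 1 added to FPKM lowers the log2 ratio of genes at low levels, so these ranks depend on it. By ratio of scaled reads NLRP3 (35.2), MEFV (15.8) and PTGS2 (12.6) exceeded IL1A, though their log2 ratios were smaller. Both genes are called up in the authors' deposited table, IL1B at q = 1.28e-05 and IL1A at q = 4.5e-05, where 0.612% of 22881 entries are called up and 0.131% down. Those q-values compare the 2 libraries and not the diets. The intervals hold the error of counting alone; PCR copies of a molecule are counted as separate reads.

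IL18 and IL33, the other ligands, were expressed at low levels. IL18, an interferon-gamma inducing cytokine, had 49 reads and 3.21 FPKM in the supplemented library and 38 reads and 2.41 FPKM in the restricted library. The interval of its ratio reached from 0.856 to 2.096, so these counts could not show a difference. IL33, a nuclear alarm cytokine of endothelial and epithelial cells, had 4 reads (0.29 FPKM) in the supplemented and 2 reads (0.14 FPKM) in the restricted library, a ratio of 2.07 with an interval of 0.297 to 22.9. Neither gene is called in the authors' deposited table.

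IL1RN, the receptor antagonist, had 198 reads and 27.6 FPKM in the supplemented library, against 111 reads and 15.0 FPKM in the restricted library. The ratio was 1.85 (1.46 to 2.35). Its log2 ratio of 0.84 fell short of the size threshold as deposited and reached 1.04 when each library was scaled to its share of all reads. The authors' deposited table does not call it (p = 0.189). By counting error, IL1A, IL1B and IL1RN were the 3 measured genes of the set with an interval wholly above 1, where 20.4% of all measured genes had such an interval and 35.7% one wholly below 1.

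The quotient of agonist to antagonist RNA differed between the libraries. The quotients given here are of FPKM, carry no interval and leave out IL1R2, which is not analysed. Protein was not measured. Per unit of IL1RN FPKM the supplemented library had 4.04 FPKM of IL1B and the restricted library 0.934 FPKM, and for IL1A the values were 2.42 against 0.428. IL1A and IL1B together made up 82.2% of the summed level of the 7 genes in the supplemented library and 45.8% in the restricted library. IL1RN made up 12.7% and 33.6%. Within the agonist pair the proportions were closer, with 1.67 FPKM of IL1B per FPKM of IL1A under supplementation and 2.18 under restriction.

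**Figure D2:**
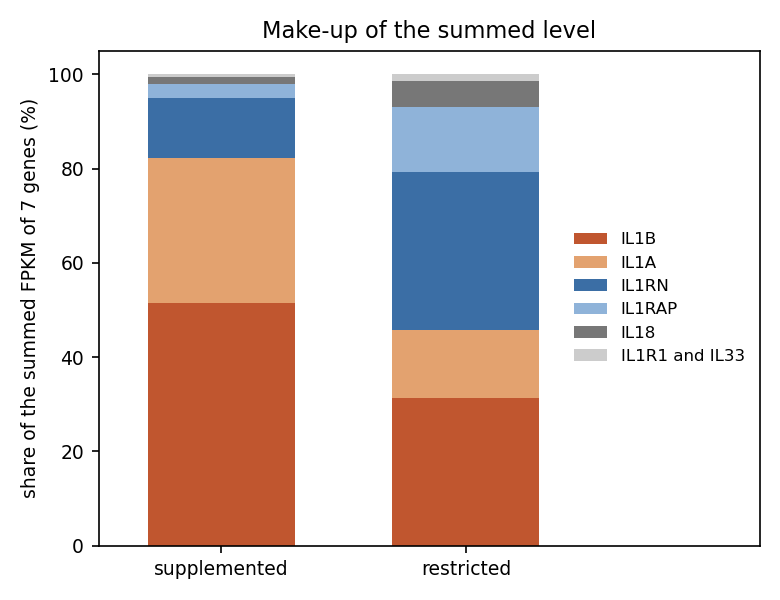
Share of each gene in the summed FPKM of the 7 genes, in percent, for the supplemented library (left bar, 217 FPKM in all) and the restricted library (right bar, 44.6 FPKM). IL1B and IL1A fill 82.2% of the supplemented bar and 45.8% of the restricted bar.

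In FPKM the receptor chains lay below IL1B and IL1RN in both libraries. IL1R1, the signalling receptor, had 46 reads and 1.11 FPKM in the supplemented library and 23 reads and 0.534 FPKM in the restricted library. The ratio was 2.07 (1.23 to 3.58), and its mean of 0.82 FPKM kept it below the level called measured. IL1RAP, the accessory chain shared by the receptors for IL1A, IL1B and IL33, had 308 reads and 6.52 FPKM in the supplemented library, against 299 reads and 6.11 FPKM in the restricted library. Its ratio of 1.07 (0.907 to 1.25) makes it the measured gene of the set with the smallest difference. Per FPKM of IL1R1, the supplemented library had 5.90 FPKM of IL1RAP and the restricted library 11.4 FPKM. The few reads of IL1R1 leave that quotient imprecise.

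The order of the levels in FPKM differed as well. FPKM divides reads by transcript length, and the intervals hold no error of that length. By reads alone IL1RAP came first in the restricted library (299), before IL1B (241), IL1RN (111) and IL1A (89). In the supplemented library IL1RAP had 308 reads and IL1RN 198. In the supplemented library the order was IL1B, IL1A, IL1RN, IL1RAP, IL18, IL1R1 and IL33, and no neighbouring pair had overlapping counting intervals. In the restricted library IL1RN (15.0 FPKM) and IL1B (14.0 FPKM) came first with overlapping intervals. IL1A (6.42 FPKM) and IL1RAP (6.11 FPKM) followed, again overlapping, then IL18, IL1R1 and IL33, with the last pair overlapping.

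IL1RN, IL1B and IL1A lie in a cluster of 10 entries over 380 kb of chromosome 3 in the sheep build Oar_v3.1. IL1RN spans chr3:59709088-59714722, IL1B chr3:59994957-60030515 and IL1A chr3:60079049-60088697. Whether an interval is exonic or intronic is not given, since the deposited table holds only the ends of each locus. The 6 entries between them that carry family names, IL1F10, IL1F5, IL1F8, IL1F6, IL1F9 and IL1F7, had 0 reads in both libraries, as did 1 entry without a name. A count of 0 allows up to 3 reads per library. IL1F6, IL1F8 and IL1F9 are the older names of the IL36 agonists, IL1F5 of their antagonist and IL1F7 of IL37. The genes that flank the cluster went in different directions. CKAP2L, a spindle protein gene beside IL1A, had 5.72 FPKM in the supplemented and 8.05 FPKM in the restricted library (ratio 0.711, 0.621 to 0.812). PSD4, beyond IL1RN, had 1.04 against 0.216 FPKM (56 against 12 reads).

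**Figure D3:**
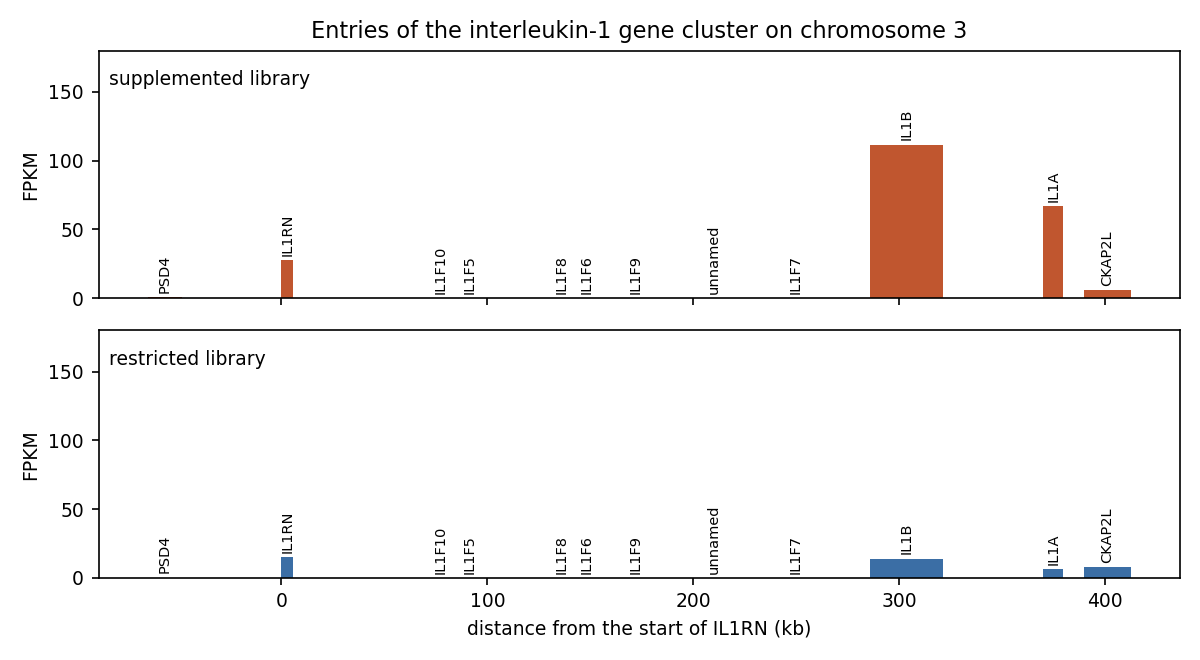
FPKM of the entries of the chromosome 3 cluster and its 2 flanking genes, against distance in kb from the start of IL1RN; each bar is as wide as its locus, the supplemented library is above and the restricted library below. Only the ends of the cluster hold signal, IL1RN on the left and IL1B and IL1A on the right, and the 7 entries between are at 0 in both libraries.

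A receptor cluster lies on the same chromosome, with IL18RAP, IL1RL1 and IL1R1 (chr3:99472044-99656695) in that order. IL1RL1, the receptor chain for IL33, had 6 reads in the supplemented and 0 reads in the restricted library, and the lower 95% counting limit of its ratio was 1.22. IL18RAP, the accessory chain for IL18, had 14 against 2 reads (ratio 7.25, 1.66 to 65.7). Both were under 1 FPKM in each library. The remaining genes of the set lie elsewhere, IL1RAP at chr1:194875377-194971983, IL18 at chr15:21907884-22012246 and IL33 at chr2:73753736-73770798.

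The wider pathway was read by role, over genes listed with earlier results of these data known. Of 89 listed genes 73 had an entry, 50 were measured, 15 (30%) were higher by size and 1 was lower, with a median log2 ratio of 0.31. The background shares are those given for all genes above. Of the 15 higher genes, NLRP3, MEFV and PTGS2 were under 1 FPKM in the restricted library and counted as measured only through the supplemented one.

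Genes of the inflammasome and of cytokine processing were in part higher in the supplemented library. Of 20 listed inflammasome and processing genes 12 were measured, 5 were higher by size and 0 lower, with a median of 0.58. PYCARD, the adaptor that links sensors to CASP1, had 419 reads and 48.6 FPKM in the supplemented library and 70 reads and 7.84 FPKM in the restricted library (ratio 6.20, 4.80 to 8.10). NLRP3, the sensor of ion flux and crystals, had 272 against 8 reads (4.51 against 0.128 FPKM, ratio 35.2, 17.6 to 82.4). MEFV, the sensor pyrin, had 350 against 23 reads. NLRP1, the listed sensor with at least 1 FPKM in both libraries, had 7.67 against 4.89 FPKM (log2 ratio 0.56) and did not pass the size threshold, and the sensors NLRC4 (17 against 5 reads) and NLRP6 (2 against 2 reads) were not measured. GSDMD, the pore protein through which mature IL1B leaves the cell, had 5.98 against 1.87 FPKM (ratio 3.20, 2.43 to 4.26), and CASP13, an inflammatory caspase described in cattle, had 6.82 against 2.23 FPKM. The authors' deposited table calls PYCARD, NLRP3 and MEFV up. TXNIP, an NLRP3 partner that many cells express, stood at 145 against 148 FPKM, and CASP8 at 9.34 against 7.40 FPKM.

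The signalling chain below the receptor differed little. All 18 listed adaptors and kinases were measured. Of the 18, 8 were above 0 (44.4%) and 10 below, near the share of all measured genes above 0 (42.2%). The median was -0.01, and 0 passed the size threshold in either direction. TAB3, a binding partner of the kinase TAK1, came nearest, at 14.6 FPKM in the supplemented and 7.29 FPKM in the restricted library (log2 ratio 0.91). IRAK2, a kinase of the later signalling phase, had 6.94 against 4.00 FPKM, and IRAK1, the early kinase, 18.7 against 27.8 FPKM. MYD88, the shared adaptor, had 11.5 against 8.61 FPKM (134 against 104 reads).

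Inhibitors were partly higher in the supplemented library. Of 12 listed 6 had an entry and 5 were measured. Of the 5, 3 were higher by size and 0 lower, with a median of 1.74. NFKBIA, which holds NF-kappaB in the cytoplasm and is itself induced by it, had 225 FPKM in the supplemented and 49.7 FPKM in the restricted library (ratio 4.51, 4.18 to 4.88). TNFAIP3, a ubiquitin-editing brake on NF-kappaB, had 12.6 against 3.08 FPKM. SERPINB1, an inhibitor of neutrophil proteases, had 40.5 against 10.1 FPKM. TNIP1, a TNFAIP3 partner, had 31.2 against 20.3 FPKM. IL18BP, the soluble trap for IL18, had 14.3 against 14.9 FPKM (162 against 175 reads). IRAK3, a kinase-dead inhibitor of the chain, had 25 against 6 reads and was not measured.

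Genes known to be induced by interleukin-1 split. Of 27 listed 15 were measured, 7 were higher by size, 1 was lower and the median was 0.76. The neutrophil attractants CXCL1 and IL8 had 2332 against 159 and 432 against 36 reads in the supplemented against the restricted library. ICAM1, a leukocyte adhesion molecule, had 23.2 against 6.02 FPKM, NFKBIZ, a nuclear cofactor of NF-kappaB, 24.9 against 8.75 FPKM, and CCL2, the monocyte attractant, 512 against 206 FPKM. PTGS2, the inducible prostaglandin synthase, had 281 against 23 reads, and TNF, a cytokine that shares most of these targets, 398 against 13 reads. MMP1, a collagenase also induced by interleukin-1 in other tissues, went the other way with 4.95 FPKM in the supplemented and 28.4 FPKM in the restricted library. PTGES and TNFAIP6, the synthase and matrix genes of ovulation, had 109 against 163 and 18.5 against 28.3 FPKM. SOD2, a target in many cells, had 97.2 against 90.3 FPKM, and IL6 had 7 against 1 reads.

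**Figure D4:**
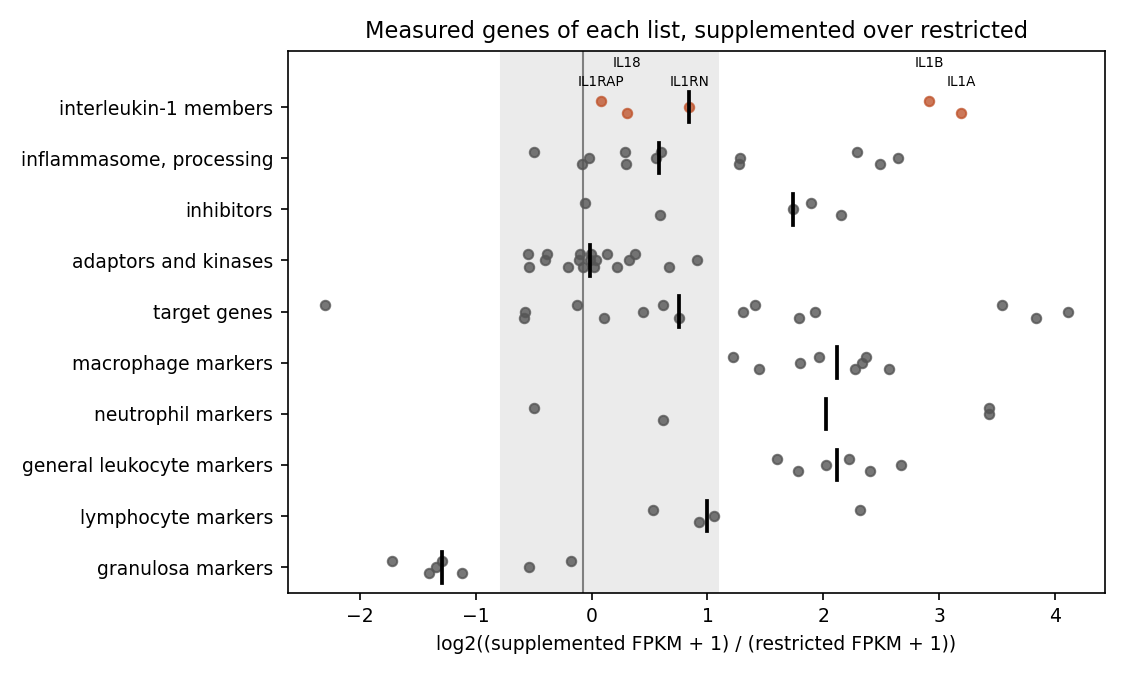
Log2 ratio of FPKM plus 1, supplemented over restricted, for each measured gene (point) of the interleukin-1 set, the pathway lists and the marker lists; black bars are list medians, the grey band holds the middle 90% of all measured genes and the grey line is their median of -0.08. IL1A (3.19) and IL1B (2.91) lie beyond nearly all leukocyte markers, the adaptors and kinases centre on 0, and the granulosa markers are all below 0.

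Markers of leukocytes differed in the same direction as IL1A and IL1B. Of 31 listed leukocyte markers 28 had an entry and 22 were measured. Of the 22, 18 were higher by size in the supplemented library and 0 lower, where 5.87% of all measured genes were higher and 2.85% lower. The median log2 ratio of the 22 was 1.99. The summed level of the 28 was 1024 FPKM in the supplemented and 199 FPKM in the restricted library. Macrophage markers were higher for 8 of 8 measured genes, with CD74 at 341 against 69.4, CD68 at 120 against 22.5, CD14 at 27.3 against 4.60 and AIF1 at 19.2 against 4.79 FPKM. Of the general leukocyte markers 6 of 6 were higher, with FCER1G at 161 against 39.0, LAPTM5 at 79.9 against 11.7, LCP1 at 48.4 against 8.35 and ITGB2 at 24.3 against 4.44 FPKM. Neutrophil markers were mixed. S100A9 and S100A12, which monocytes also make, had 379 against 31 and 582 against 40 reads, and CSF3R, the receptor for granulocyte colony-stimulating factor, had 31 against 9 reads (ratio 3.57, 1.66 to 8.52). CXCR2 had 0 reads in both libraries, MPO 2 against 3 and ELANE 4 against 8 reads, and MMP9 2.25 against 1.12 FPKM. Lymphocyte markers were lower in level, with NKG7 at 15.3 against 2.27, CD3E at 7.29 against 4.74, CD3D at 2.54 against 0.866 and CD2 at 2.30 against 0.583 FPKM. CD2, which is among the 18 higher markers, and CD3D counted as measured only through the supplemented library. ELANE counted as measured only through the restricted library.

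Of the 22 measured leukocyte markers only S100A9 and S100A12 had a larger log2 ratio than IL1A and IL1B. IL1RN lay below 19 of the 22, and IL1RAP and IL18 below 21. This order depends on the 1 added to FPKM. By ratio of scaled reads IL1B (7.99, 6.99 to 9.18) and the macrophage marker CD163 (7.78, 6.70 to 9.07) had overlapping intervals. Set against the summed level of the leukocyte markers, IL1B stood at 10.9 FPKM per 100 FPKM of markers in the supplemented library and at 7.01 in the restricted library, a quotient of 1.56 between them. For IL1A the values were 6.53 and 3.22 (quotient 2.03), for IL1RN 2.70 and 7.51 (0.36), for IL18 0.314 and 1.21 (0.26), and for IL1RAP 0.637 and 3.06 (0.208). CD74 makes up the largest share of that sum in both libraries. These quotients depend on which markers are summed. The sum of all leukocyte markers differed 5.13-fold between the libraries. By list it differed 5.01-fold for macrophage, 4.87-fold for general leukocyte, 3.06-fold for lymphocyte and 10.02-fold for neutrophil markers. The ratio of IL1B (7.99) lay below that of the neutrophil sum, and the ratio of IL1A (10.4) lay near it. The part of leukocytes in these differences was not tested. In a bulk library fewer cells of a type and less RNA per cell cannot be told apart.

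Defining transcripts of granulosa cells, the labelled cell type, were abundant in both libraries, with INHA at 2910 against 7412, SERPINE2 at 3412 against 7419, INHBA at 2227 against 5880 and GJA1 at 431 against 1057 FPKM in the supplemented against the restricted library. All 7 measured granulosa markers were below 0 on the log2 scale, as were 6892 of all 11927 measured genes. Of the 7 markers, 5 were lower by size, where 2.85% of all measured genes were. FSHR at 65.5 against 74.3 and AMH at 60.2 against 88.0 FPKM did not pass the size threshold. The summed level of the 7 granulosa markers was 9166 FPKM in the supplemented and 22133 FPKM in the restricted library. The part of this difference in the interleukin-1 values was not tested. Over all entries there were 9426679 reads in the supplemented and 11299773 reads in the restricted library.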

How the data were processed

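The labels' protocols give 5 µg of RNA per group, TruSeq libraries and 15 PCR cycles. Per the submitters' processing notes, TopHat and Cuffdiff were used with build Oar_v3.1; versions and the annotation are not stated there. The deposited table holds 22881 entries. Its read columns are a signal that the authors divided by 1 size factor per library. A single read counts 1.02 in the supplemented library and 0.983 in the restricted one, and 98.5% and 98.3% of entries above 0 were whole reads within 0.02. FPKM values are as deposited, per the file headers. All p-values and q-values are those of the authors' deposited table, whose fold change is supplemented over restricted and matched the FPKM columns.

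FPKM was summed per gene name. With 1 library per group no count model could be fitted. Ratios of scaled reads carry exact Clopper-Pearson 95% intervals and FPKM exact Poisson intervals (SciPy 1.17.1, pandas 2.3.3). The procedure was tested on simulated Poisson counts with set ratios. These hold the error of counting alone, so the test says nothing about variation among ewes or libraries. The 9 genes, the pathway and marker lists and the naming rule were chosen with earlier results of these data known. The rule names all 9 genes, pathway genes past the size threshold or among the 4 with the largest absolute ratio of a list, and the 4 most abundant markers of a list. CASP8, CDH5, CSF3R, IL18BP, IL6, IRAK3, KDR, KRT19, MYD88, NLRC4, NLRP1, NLRP6, PTGES, SOD2, TEK, TNFAIP6, TXNIP, VWF and the neutrophil genes at or near 0 fall outside it and were chosen with their values in view, as were IL18RAP, IL1RL1 and the genes beside the clusters. AMH, CD163 and FSHR were also named outside the rule, with their values in view. Older symbols were matched for 5 IL1F names and IL8. All 9 symbols are in the RefSeq annotation of ARS-UI_Ramb_v3.0, used for names and gene order only. Alternatives covered the pseudocount, filter, threshold, scaling and entries per gene.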

Additional observations from a re-analysis of the deposited data

How the results depend on the processing

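IL1A and IL1B were higher by size under all 9 alternatives, and the log2 ratio of each of the 7 genes stayed above 0 under the 5 that change it. IL1A ran from 2.65 to 4.48, IL1B from 2.62 to 4.20, IL1RN from 0.71 to 2.13 and IL1RAP from 0.05 to 1.37. Scaling to the share of all reads shifts the log2 ratio of FPKM by 0.21, and by less once 1 is added to low values; it adds IL1RN, so that 3 of the 5 measured genes are higher, with 7.43% of all genes higher and 1.73% lower. Centring on the granulosa markers, whose median is -1.29, made all 5 measured genes higher, with a median of 2.13, and 42 of 50 pathway genes, but 70.9% of all genes are then higher. With no filter 7 genes enter and their median is 0.46; when a mean of at least 5 FPKM is required, 4 enter and it is 1.88. At a log2 threshold of 2 the pathway genes higher by size numbered 7 in place of 15, with 1.42% of all genes higher and 0.386% lower. Depth limits IL33, IL18RAP, IL1RL1 and IL6, with fewer than 20 reads in each library. No paired analysis was possible because each group is 1 library.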

Other observations

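Some markers of other cell types also differed between the libraries, in both directions. Whether these cell types differed in number was not tested. Of 5 measured stromal markers 3 were higher by size in the supplemented library, where 5.87% of all measured genes were. COL1A1 had 152 against 37.4 and COL1A2 118 against 26.3 FPKM. DCN stood at 172 against 144 and LUM at 61.9 against 91.5 FPKM. Theca markers were mixed, with INSL3 at 201 against 93.7, CYP17A1 at 8.57 against 7.10 and LHCGR, which large follicles also express in granulosa cells, at 11.2 against 23.0 FPKM. PECAM1, shared by endothelium and leukocytes, had 10.4 against 1.79 FPKM, while the other 4 endothelial genes were not measured; KDR had 114 against 28 reads, VWF 108 against 83, TEK 68 against 57 and CDH5 21 against 16. Of 3 measured epithelial markers 1 was lower by size, KRT18 at 2.90 against 9.18 FPKM, where 2.85% of all measured genes were lower. KRT8 stood at 22.1 against 36.1 and EPCAM at 1.78 against 2.49 FPKM, and KRT19, not measured, had 24 against 16 reads.

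The entry next to IL1R1 on chromosome 3 carries the name TNIK in the deposited table (chr3:99664095-99837755, Oar_v3.1) and had 34.2 FPKM in the supplemented and 27.7 FPKM in the restricted library. A second entry of that name lies on chromosome 1, with 3.24 against 1.84 FPKM. In the RefSeq gene order of ARS-UI_Ramb_v3.0 the named genes after IL1R1 are IL1R2 and MAP4K4, and TNIK is on chromosome 1. Whether the chromosome 3 entry holds reads of MAP4K4, IL1R2 or TNIK was not tested.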
